A study of Mus musculus with 54 samples.

Results

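Fatty acid beta-oxidation was followed here through 9 genes of the pathway and its control, chosen by their symbols from the 39179 gene IDs of the deposited count tables. The genes are Acadvl, Acadl and Acadm (the very long, long and medium chain acyl-CoA dehydrogenases), Hadha and Hadhb (the subunits of the mitochondrial trifunctional protein), Cpt2 (carnitine palmitoyltransferase of the inner mitochondrial membrane), Etfdh (the flavoprotein dehydrogenase that passes electrons on to ubiquinone), Ppargc1b (the transcriptional coactivator PGC-1beta) and Prkab1 (the beta1 subunit of the AMP-activated kinase, AMPK). All 9 were counted in each of the 15 conditions and passed the filter on low counts in both experiments.

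Long-chain fatty acids enter the mitochondrial matrix as carnitine esters, and Cpt2 turns them back into acyl-CoA. The acyl-CoA dehydrogenases then open each round of shortening, each on its own range of chain lengths, and hand their electrons to the electron transfer flavoprotein and Etfdh. For long chains the remaining steps of the round, hydration, a second oxidation and thiolytic cleavage, run on the trifunctional protein, an assembly of Hadha and Hadhb subunits. PGC-1beta acts with nuclear receptors of the PPAR and ERR families on genes of mitochondrial oxidation, and AMPK favours fatty acid entry into mitochondria by restraining malonyl-CoA synthesis. In macrophages, fatty acid oxidation is known from IL-4 stimulated, alternatively activated cells, and classically activated cells are known for glycolysis.

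The cells were thioglycolate-elicited peritoneal exudate cells of C57BL/6 mice, in which adherent macrophages were left without stimulus (M0), stimulated with LPS and IFN-γ (M1-like) or with IL-4 (M2-like). The polarization experiment held the M0, M1-like and M2-like conditions at 24 h. By the labels the same 3 mice gave each condition, with 2 technical replicates that were summed, giving 9 samples read as single 50 nt reads. The main tests did not use this pairing by mouse. The reprogramming experiment, read as paired 150 nt reads, held 12 conditions with 3 replicates each: M0, M1-like and M2-like cells without transfection, the same cells mock transfected with the reagent alone, and M2-like cells that had received a negative siRNA pool, an siRNA pool to E2f1, Myc, Pparg or Stat6, or the combined pool to all 4 factors. The pools were given after polarization with IL-4, the cells were then kept without IL-4, and RNA was taken 48 h after transfection. The cells are primary exudate cells enriched by adherence rather than sorted, the siRNA pools lower their targets without deleting them, and whether the reprogramming replicates came from separate mice is not given in the sources used here, so p-values there measure the spread between those samples only.

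The libraries held 39577911 to 59443987 counted reads per summed sample in the polarization experiment and 13421854 to 19704195 per sample in the reprogramming experiment. The labels were borne out by defining genes. Nos2, the inducible nitric oxide synthase of M1-like cells, ran from 11070 to 14010 CPM (normalised read counts scaled to a common library size) in M1-like cells at 24 h and reached at most 1.27 in the other conditions of that experiment. Chil3, an IL-4 induced lectin, ran from 5078 to 6508 CPM in M2-like cells at 24 h against at most 22.6 in the other conditions of that experiment. Both stood lower in the reprogramming experiment. Nos2 ran there from 421 to 824 CPM in M1-like cells, untransfected or mock, and reached at most 2.86 in the other conditions. Chil3 ran there from 387 to 1064 CPM in the M2-like conditions, siRNA pools included, against at most 11.8 in M0 and M1-like cells. The single pools lowered E2f1, Myc, Pparg and Stat6 to 25.2 ± 4.05%, 38.0 ± 8.01%, 21.9 ± 2.58% and 27.3 ± 5.79% of the negative pool (SD, n = 3), and the combined pool lowered them to 60.4 ± 2.01%, 39.6 ± 3.20%, 28.3 ± 2.25% and 54.0 ± 4.82%. All 6 macrophage markers were above 1 CPM in each condition. In bulk RNA, fewer cells of a type and less RNA per cell cannot be told apart.

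Hadha and Hadhb lie head to head on mouse chromosome 5 (GRCm38), Hadha on the minus strand at chr5:30118304-30155162 and Hadhb on the plus strand at chr5:30155248-30184593. The 85 bases between their GENCODE M21 starts are shown because both genes are read outwards from them. All 85 lie in the promoter window of Hadhb and 68 of them in that of Hadha. The promoter windows are placed on RefSeq starts, which differ from the GENCODE starts, so the distance between the starts depends on the annotation. The sequence is the plus strand of chr5:30155163-30155247 from RefSeq promoter windows (GRCm38.p6, 250 bases before to 50 after a gene's start), and capitals mark the 68 bases that both windows hold.

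Hadha-Hadhb stretch: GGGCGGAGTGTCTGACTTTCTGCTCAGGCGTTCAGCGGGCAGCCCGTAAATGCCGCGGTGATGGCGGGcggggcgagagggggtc

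The stretch was 69.4% G or C, and the RefSeq windows of Hadha and Hadhb overlapped in 228 bases (chr5:30155003-30155230). The other members lie apart, Acadl on chromosome 1, Acadm and Etfdh on chromosome 3, Cpt2 on chromosome 4, Prkab1 on chromosome 5, Acadvl on chromosome 11 and Ppargc1b on chromosome 18. Acadvl shares 1151 exonic bases, 42.9% of its exon length, with Dvl2 on the opposite strand. The strand setting of the counting is not given in the sources used here, so the Acadvl counts are uncertain. Etfdh shares 278 exonic bases (3.7%) with 4930579G24Rik and Hadha 75 (0.86%) with Garem2, both on the opposite strand.

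Per length of transcript, Acadl had the highest mean of the 9 members in each condition. In the polarization experiment the condition means of Acadl ran from 53.8 to 59.9 RPKM (CPM divided by transcript length in kilobases) and those of Hadha from 26.9 to 37.8. Acadm (13.3 to 21.8), Hadhb (13.0 to 17.1), Acadvl (12.3 to 13.1), Etfdh (12.7 to 17.9) and Prkab1 (11.1 to 18.9 RPKM) lay within overlapping ranges, Cpt2 stood at 6.48 to 7.27, and the coactivator Ppargc1b was lowest at 0.942 to 1.97 RPKM. In the reprogramming experiment Acadl ran from 55.1 to 73.1 RPKM, Hadha from 25.4 to 66.5, Acadm from 25.5 to 36.3 and Ppargc1b from 1.80 to 3.16. Hadha came next after Acadl in each condition except M1-like mock, where Acadm stood at 26.3 and Hadha at 25.4 RPKM. This order rests on the transcript lengths used. In untransfected M2-like cells Acadl stood at 68.2 and Hadha at 66.5 RPKM, but at 130.6 and 267.3 CPM. Hadhb stood lower there than its partner subunit and lower than in the polarization experiment, at 2.46 to 5.93 RPKM. The experiments differ in read length and were normalized apart, so this gap in level between them was not tested and its cause cannot be told apart from theirs.

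Hadha varied most between the 12 conditions of the reprogramming experiment, 2.62-fold from its lowest mean (102 CPM, M1-like mock) to its highest (267 CPM, M2-like untransfected). Hadhb varied 2.41-fold and Ppargc1b 1.76-fold, and the other 6 members 1.25-fold to 1.42-fold. When the conditions were ordered by level, the replicates of 5 of the 11 neighbouring pairs did not overlap for Hadha, of 1 pair for Acadm and of 1 for Prkab1. For the other 6 members the replicates of every neighbouring pair overlapped. No share over all genes was computed for such pairs, so these counts do not mark out any member.

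**Figure D1:**
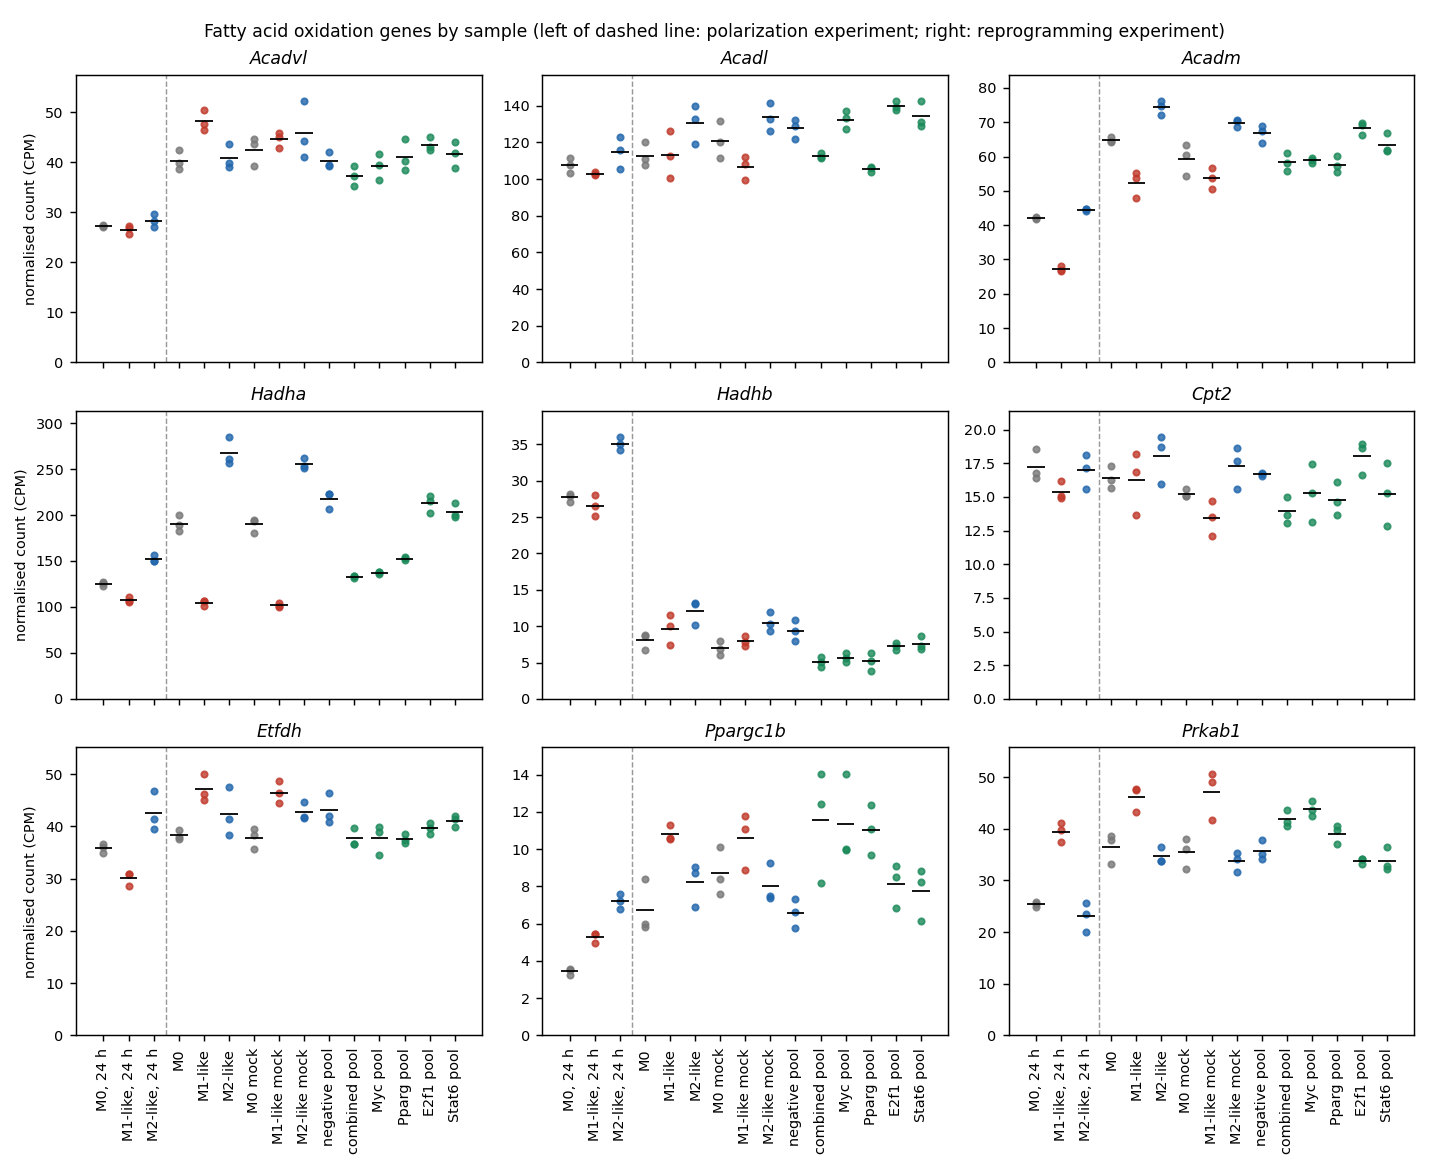
Normalised counts (CPM, linear axes from 0) of the 9 genes in each sample, with the 3 conditions of the polarization experiment to the left of the dashed line and the 12 conditions of the reprogramming experiment to its right. Points are samples and horizontal bars are condition means; Hadha is highest in M2-like cells of both experiments, between 250.9 and 284.7 CPM in the untransfected and mock M2-like samples of the reprogramming experiment, and Hadhb sits at 25.2 CPM or above on the left and at 13.2 or below on the right.

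The first comparison asks how the pathway differs between the polarized states at 24 h. Setting M1-like against M2-like macrophages, 6 of the 9 genes were lower (38.1% of all genes were), Prkab1 was higher (34.6%), and Acadvl and Cpt2 were not called. Calls rest on edgeR's quasi-likelihood test with Benjamini-Hochberg adjustment over all genes tested (adjusted p under 0.05), and at that threshold 72.6% of the 16110 genes were called in this comparison, so that 7 of 9 is near the background. The median log2 fold change of the members was -0.40, beside -0.06 for all genes tested. The replicates of the M1-like and M2-like samples did not overlap for 7 of the members, against 73.8% of all genes. Acadl, Acadm and Prkab1 are among the metabolic genes that the study selected for differing between these same samples, so their direction here is no independent evidence.

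Acadm differed most among the dehydrogenases. It stood at 26.9, 28.1 and 26.8 CPM in the 3 M1-like samples and at 44.2, 44.6 and 44.8 CPM in the 3 M2-like samples. Its groups lay well apart, 1.64-fold lower in M1-like cells (log2 fold change -0.71 ± 0.05 SE, edgeR adjusted p = 1.32e-07). Acadl stood at 102.5, 102.6 and 104 CPM in M1-like and at 122.9, 116 and 105.3 CPM in M2-like samples, whose nearest samples, at 104 and 105.3 CPM, still did not overlap (log2 fold change -0.16 ± 0.06 SE, edgeR adjusted p = 0.0448). That call was lost with the mouse as a block (-0.15, edgeR adjusted p = 0.0690) and with DESeq2 (-0.12, DESeq2 adjusted p = 0.108). RLE factors, no filter or only the compared groups lost it as well (edgeR adjusted p = 0.110, 0.0795 and 0.0858). It was also lost in 5 of the 6 fits that left out a sample, with adjusted p from 0.0773 to 0.110 without M1-like replicate 1, 2 or 3 or without M2-like replicate 1 or 2. Acadvl stood at 25.6 to 27.3 CPM in M1-like against 27.1 to 29.7 CPM in M2-like samples, groups that overlapped (log2 fold change -0.09 ± 0.06 SE, edgeR adjusted p = 0.179).

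Both subunits of the trifunctional protein were lower in M1-like cells. Hadha stood at 111, 106 and 107 CPM in M1-like and between 149.6 and 156 CPM in M2-like samples (log2 fold change -0.49 ± 0.05 SE, edgeR adjusted p = 3.24e-06). Hadhb stood at 26.5, 28.0 and 25.2 CPM in M1-like and at 36, 34.2 and 35.03 CPM in M2-like samples (log2 fold change -0.40 ± 0.06 SE, edgeR adjusted p = 7.73e-05). In each case every M2-like sample was above every M1-like sample. The reads of the 2 subunits kept a narrow ratio in this experiment, from 3.78 to 4.65 Hadha counts per Hadhb count over the 9 samples. M1-like samples were lowest, at 3.779 to 4.235, against 4.282 to 4.368 in M2-like and 4.353 to 4.651 in M0 samples.

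Etfdh, which links the dehydrogenases to the respiratory chain, stood at 30.9, 28.6 and 30.9 CPM in M1-like and at 46.8, 39.6 and 41.4 CPM in M2-like samples, without overlap (log2 fold change -0.50 ± 0.07 SE, edgeR adjusted p = 4.79e-05). Cpt2, the step before them, stood at 14.9 to 16.2 CPM in M1-like against 15.6 to 18.2 CPM in M2-like samples, with overlap (log2 fold change -0.15 ± 0.08 SE, edgeR adjusted p = 0.119). Without M2-like replicate 1 it passed the threshold (-0.20, edgeR adjusted p = 0.0243).

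Of the 2 control genes, the coactivator and the kinase subunit went opposite ways. Ppargc1b stood at 4.97, 5.44 and 5.43 CPM in M1-like and at 6.76, 7.21 and 7.60 CPM in M2-like samples (log2 fold change -0.45 ± 0.10 SE, edgeR adjusted p = 0.00115). Prkab1 stood at 39.8, 37.5 and 41.0 CPM in M1-like and at 19.98, 25.7 and 23.6 CPM in M2-like samples, 1.71-fold higher in M1-like cells (log2 fold change 0.77 ± 0.08 SE, edgeR adjusted p = 4.83e-06). Neither gene's groups overlapped. The scale matters to these values: with library totals alone in place of TMM factors the median of all genes moved from -0.06 to -0.49, and 8 members were then lower and Prkab1 higher, with all genes split into 3222 higher and 9795 lower in place of 5573 and 6130.

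The summed macrophage markers were also lower in the M1-like samples at 24 h, 10130 to 11070 CPM against 12670 to 13010 CPM in M2-like samples, and the summed mesothelial markers were 0.135 to 0.416 CPM against 1.16 to 1.85 CPM. The eosinophil markers summed to 0.271 to 0.817 CPM in M1-like against 14.1 to 19.1 CPM in M2-like samples, led by Siglecf, with Epx and Prg2 at 0 in both. The T cell markers summed to 4.93 to 5.82 against 0.509 to 0.671 CPM, led by Lck, and the neutrophil markers to 9.40 to 14.0 against 5.85 to 7.04 CPM, led by S100a8 with S100a9 at 0. Their part in the result was not tested.

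Set against unstimulated cells, the members split by stimulus. In M1-like against M0 cells at 24 h, 3 were lower (Acadm, Hadha, Etfdh) and 2 higher (Ppargc1b, Prkab1), 5 of 9 where 72.9% of all genes were called, 37.5% lower and 35.4% higher. Acadm fell from 42.1 ± 0.319 CPM in M0 to 27.2 ± 0.726 CPM in M1-like cells (log2 fold change -0.63 ± 0.05 SE, edgeR adjusted p = 4.17e-07). Hadha fell by 0.21 and Etfdh by 0.25 on the log2 scale. On library totals alone, which moved the median of all genes from -0.04 to -0.46, the split was 7 lower and 1 higher. All genes then split into 3226 higher and 9543 lower in place of 5703 and 6048. The call of Ppargc1b (0.62 ± 0.10 SE, edgeR adjusted p = 1.23e-04) was lost on that scale (0.19, edgeR adjusted p = 0.110). The macrophage markers summed to 16060 to 17330 CPM in M0 cells at 24 h, above both stimulated states, and their part in the comparisons with M0 was not tested.

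In M2-like against M0 cells, 4 members were higher and none lower, where 27.9% of all genes were called, 13.5% higher and 14.4% lower. Ppargc1b stood at 3.52, 3.25 and 3.57 CPM in M0 and at 6.76 to 7.60 CPM in M2-like cells, a 2.09-fold difference without overlap (log2 fold change 1.06 ± 0.10 SE, edgeR adjusted p = 1.44e-05). It was the only member called higher in both stimulated states than in M0, with M1-like cells between the others at 4.97 to 5.44 CPM, though the M1-like call was lost on library totals alone. Hadha rose from 125 ± 2.32 to 152 ± 3.78 CPM (log2 fold change 0.28 ± 0.05 SE, edgeR adjusted p = 0.00199) and Hadhb from 27.7 ± 0.604 to 35.1 ± 0.881 CPM (0.34 ± 0.06 SE, edgeR adjusted p = 0.00156). Etfdh was higher by 0.25 ± 0.07 SE on the log2 scale (edgeR adjusted p = 0.0217), a call lost without M0 replicate 1, 2 or 3 (edgeR adjusted p = 0.0578, 0.0910 and 0.0510). Prkab1 stood at 23.1 ± 2.89 CPM in M2-like and 25.4 ± 0.470 CPM in M0 cells, with overlap (edgeR adjusted p = 0.261).

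**Figure D2:**
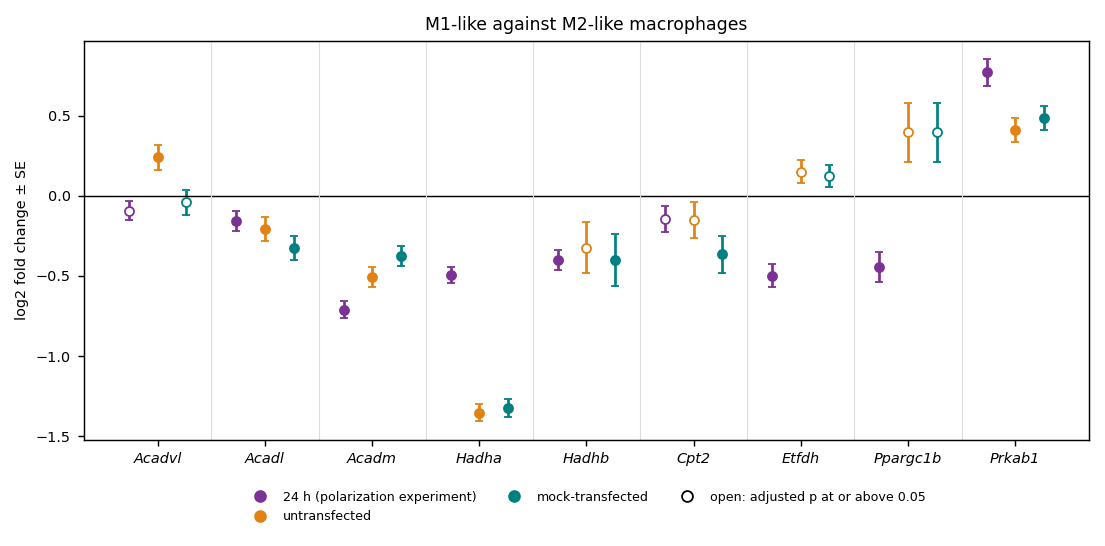
Log2 fold change (± SE) of M1-like against M2-like cells for the 9 genes, in the polarization experiment at 24 h and in the reprogramming experiment without transfection and after mock transfection; filled points have an adjusted p under 0.05 and open points do not. Acadm and Hadha are below 0 and Prkab1 above 0 in all 3 comparisons, Hadha at -0.49, -1.35 and -1.32.

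The reprogramming experiment repeated the polarized states without transfection and after mock transfection. The labels do not give how long its untransfected cells had been stimulated, so their values cannot be placed in time against the 24 h samples. Hadha was the member with the largest difference in both. In untransfected cells it stood at 101, 107 and 107 CPM in M1-like and at 284.7, 256.7 and 260.6 CPM in M2-like samples, 2.55-fold lower in M1-like cells (log2 fold change -1.35 ± 0.06 SE, edgeR adjusted p = 5.96e-20). In mock transfected cells it stood at 104, 101 and 100.2 CPM in M1-like and at 250.9, 261.7 and 253.5 CPM in M2-like samples (log2 fold change -1.32 ± 0.06 SE, edgeR adjusted p = 1.37e-19). The samples of the 2 states were far apart in both settings and repeated each other closely within a state.

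In the untransfected cells 5 members were called in M1-like against M2-like cells, Acadl, Acadm and Hadha lower and Acadvl and Prkab1 higher, where 61.5% of all genes were called, 30.2% lower and 31.3% higher. The member median was -0.15 beside 0.03 for all genes. On library totals alone (median of all genes 0.22) the split was 4 higher and 2 lower in place of 2 and 3. All genes then split into 6200 higher and 3123 lower in place of 4429 and 4282. Acadm stood at 47.9, 55.2 and 53.8 CPM in M1-like and at 76.3, 72.0 and 74.9 CPM in M2-like samples (log2 fold change -0.51 ± 0.06 SE, edgeR adjusted p = 1.70e-08). Acadl was lower by 0.21 on the log2 scale although its samples overlapped (edgeR adjusted p = 0.0159), and that call was lost without M1-like replicate 2 (edgeR adjusted p = 0.151) or M2-like replicate 3 (0.102). The groups of Acadm were well apart and those of Acadl were not.

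In the mock transfected cells 6 members were called, 5 lower (Acadl, Acadm, Hadha, Hadhb, Cpt2) and Prkab1 higher, where 60.7% of all genes were called, 29.8% lower and 30.9% higher. When library totals alone set the scale, the median of all genes moved from 0.03 to 0.25. On that scale 4 members were higher (Acadvl, Etfdh, Ppargc1b, Prkab1) and 2 lower (Acadm, Hadha). All genes then split into 6492 higher and 2977 lower in place of 4373 and 4224. Acadm stood at 50.7, 53.9 and 56.8 CPM in M1-like and at 70.2, 68.6 and 70.5 CPM in M2-like samples (log2 fold change -0.38 ± 0.06 SE, edgeR adjusted p = 3.79e-06). Acadl stood at 112, 99.4 and 108 CPM in M1-like and at 142, 126.5 and 133 CPM in M2-like samples (-0.33 ± 0.07 SE, edgeR adjusted p = 2.91e-04). Neither dehydrogenase's groups overlapped.

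Cpt2 stood at 13.5, 12.1 and 14.7 CPM in M1-like mock and at 15.6, 18.7 and 17.6 CPM in M2-like mock samples, without overlap (log2 fold change -0.36 ± 0.11 SE, edgeR adjusted p = 0.00680). Hadhb, at 8.65, 7.32 and 7.84 CPM against 9.28, 10.2 and 11.9 CPM, was lower by 0.40 ± 0.16 SE on the log2 scale (edgeR adjusted p = 0.0327). Its call was lost without M1-like mock replicate 2 or 3 (edgeR adjusted p = 0.110 and 0.0679) or without M2-like mock replicate 2 or 3 (0.0522 and 0.160). Prkab1 stood at 41.7, 50.7 and 49.0 CPM in M1-like and at 31.6, 34.1 and 35.3 CPM in M2-like samples, higher in M1-like cells as at 24 h (0.49 ± 0.08 SE, edgeR adjusted p = 2.05e-06).

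Etfdh and Ppargc1b, lower in M1-like cells at 24 h, stood the other way round in the reprogramming experiment. Etfdh was at 46.3, 48.7 and 44.5 CPM in M1-like mock and at 41.9, 44.7 and 41.6 CPM in M2-like mock samples, with slight overlap (log2 difference 0.12 ± 0.07 SE, edgeR adjusted p = 0.130). Ppargc1b was at 8.86, 11.1 and 11.8 CPM in M1-like mock and at 7.49, 7.36 and 9.27 CPM in M2-like mock samples, with overlap (log2 difference 0.40 ± 0.18 SE, edgeR adjusted p = 0.0615). Ppargc1b passed the threshold without M1-like mock replicate 1 (edgeR adjusted p = 0.0293) or M2-like mock replicate 3 (0.0373). Neither gene was called there, and the change between the experiments was not tested because they were fitted apart.

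The summed macrophage markers stood at 6162 to 7160 CPM in M1-like mock and 14550 to 15900 CPM in M2-like mock samples. Without transfection they stood at 6600 to 7738 CPM in M1-like, 15870 to 18250 CPM in M2-like and 16400 to 16750 CPM in M0 samples. The 5 mesothelial markers summed to 0.344 to 1.05 CPM in M1-like mock and 13.8 to 28.7 CPM in M2-like mock samples, none and 4 of them reaching 1 CPM on average, and the 5 B cell markers to 0.979 to 2.36 and 6.90 to 12.5 CPM. The eosinophil markers summed to 0.737 to 1.28 and 18.8 to 20.1 CPM, with Epx and Prg2 at 0 in the M2-like samples. The T cell markers stood at 2.41 to 2.77 and 0.768 to 1.11 CPM (led by Lck, with Cd3g and Trbc2 at 0 in both), the neutrophil markers at 7.67 to 11.9 and 3.83 to 5.89 CPM (led by S100a8, with S100a9 and Ly6g at 0 in both) and the mast cell markers at 0.109 to 0.196 and 1.19 to 1.60 CPM. Their part in these differences was not tested.

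Against M0 cells of the reprogramming experiment, Hadha was lower in M1-like and higher in M2-like cells in both settings. In untransfected cells it stood at 188.9, 199.8 and 182.9 CPM in M0, so that the 3 states were ordered without overlap, with M1-like below by 0.86 ± 0.05 SE and M2-like above by 0.49 ± 0.05 SE on the log2 scale (edgeR adjusted p = 6.97e-15 and 4.61e-08). In mock transfected cells, with M0 at 193.8, 194.7 and 180.9 CPM, the differences were -0.90 ± 0.05 SE and 0.43 ± 0.05 SE (edgeR adjusted p = 3.17e-15 and 3.58e-06). The order of Hadha was thus the same as at 24 h.

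Prkab1 was higher in M1-like than in M0 cells, 46.2 ± 2.59 against 36.6 ± 2.89 CPM without transfection (log2 fold change 0.34 ± 0.08 SE, edgeR adjusted p = 3.64e-04) and 47.1 ± 4.81 against 35.5 ± 2.94 CPM after mock transfection (0.41 ± 0.08 SE, edgeR adjusted p = 2.64e-05). Etfdh was higher as well, by 0.30 ± 0.07 SE in each setting (edgeR adjusted p = 6.69e-04 and 5.61e-04). In all, 6 members were called in untransfected M1-like against M0 cells (57.7% of all genes), 4 of them higher (29.0% of all genes) and 2 lower (28.7%). After mock transfection 5 were called (60.4% of all genes), 2 higher (30.3%) and 3 lower (30.0%), of which the calls of Acadl and Acadm, both lower, were weak. They were lost without M0 mock replicate 1 or 3 or M1-like mock replicate 2, and that of Acadm also without M1-like mock replicate 1 (edgeR adjusted p = 0.0525 to 0.254), leaving 3 members at the fewest. On library totals alone (median of all genes 0.23) the mock split was 5 higher and 1 lower in place of 2 and 3. Acadl and Acadm changed sign, and all genes split into 6372 higher and 2990 lower in place of 4299 and 4257.

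In the same experiment M2-like cells were above M0 cells in each member called. Without transfection these were Acadl, Acadm, Hadha and Hadhb, 4 of 9 where 19.9% of all genes were called, 10.7% higher and 9.19% lower. Hadhb stood at 6.73, 8.69 and 8.73 CPM in M0 and at 13.2, 10.2 and 13.0 CPM in M2-like samples (log2 fold change 0.59 ± 0.16 SE, edgeR adjusted p = 0.00983), a call lost without M0 replicate 1 (edgeR adjusted p = 0.0720). The calls of Acadl and Acadm were each lost in 4 of 6 fits that left out a sample (edgeR adjusted p = 0.0525 to 0.180), and 2 members were called without M0 replicate 1 or 2 or without M2-like replicate 1 or 3. After mock transfection Acadm, Hadha and Hadhb were called, 3 of 9 where 3.83% of all genes were called, 2.19% higher and 1.64% lower. Hadhb stood there at 7.92, 6.02 and 6.92 CPM in M0 and at 9.28, 10.2 and 11.9 CPM in M2-like samples, without overlap (log2 fold change 0.60 ± 0.17 SE, edgeR adjusted p = 0.0361). Only 1 member was called without M0 mock replicate 2 or without M2-like mock replicate 2 or 3.

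No member was called between mock transfected and untransfected cells. The time of stimulation of the untransfected cells is not given, so the 2 settings may differ in more than the reagent. Against untransfected cells, 0 of 9 were called by edgeR in M0, M1-like and M2-like cells, where 20.4%, 0.0% and 1.77% of all genes were called (11.7%, 0.0% and 1.67% higher, 8.66%, 0.0% and 0.0988% lower). DESeq2 called 0 in each as well, and 1 member in each had an unadjusted p under 0.05: Acadm in M0 (log2 difference -0.13), Cpt2 in M1-like (-0.27) and Acadvl in M2-like cells (0.17). The M1-like against M2-like difference did not differ detectably between mock transfected and untransfected cells either. The interaction was called for 0 of 9 members (1.13% of all genes), with log2 values from -0.28 (Acadvl) to 0.13 (Acadm), a lowest edgeR adjusted p of 0.472, 1 unadjusted p under 0.05 and 0 calls by DESeq2.

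The negative siRNA pool lowered a single member against M2-like mock cells, where 11.7% of all genes were called, 5.03% lower and 6.67% higher. Hadha stood at 207, 223 and 223 CPM with the negative pool, below the 250.9 to 261.7 CPM of the mock samples (log2 fold change -0.23 ± 0.05 SE, edgeR adjusted p = 0.00379). Without M2-like mock replicate 1 the count was 2.

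**Figure D3:**
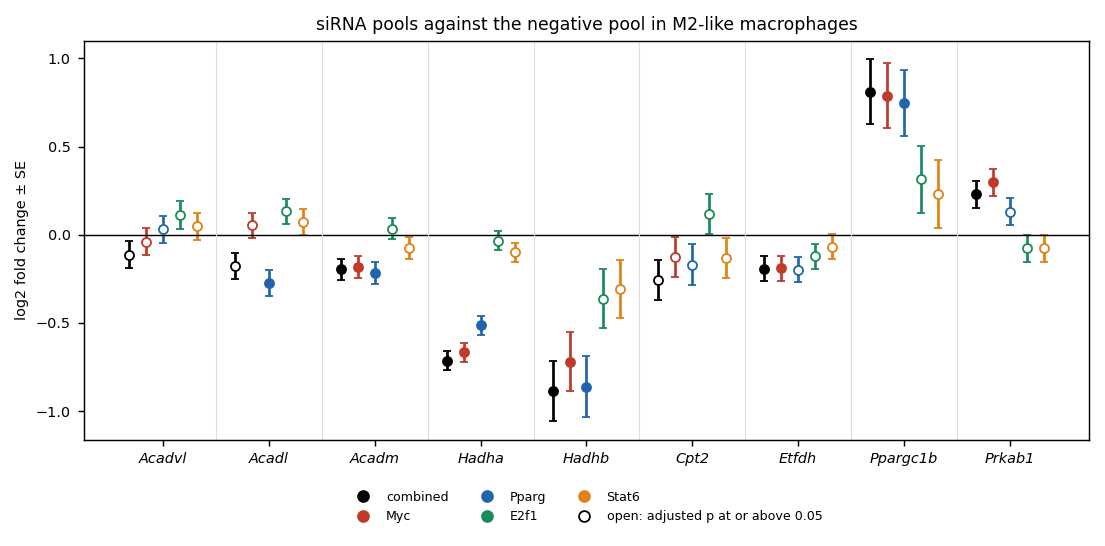
Log2 fold change (± SE) of the combined, Myc, Pparg, E2f1 and Stat6 siRNA pools against the negative siRNA pool for the 9 genes; filled points have an adjusted p under 0.05 and open points do not. All 5 comparisons share the 3 negative pool samples; Hadha and Hadhb are lower and Ppargc1b higher with the combined, Myc and Pparg pools, and no point of the E2f1 or Stat6 pools is filled.

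The siRNA comparison asks whether lowering factors that the study predicted to maintain the M2-like state moves the pathway. With the combined pool, 6 of the 9 genes were called against the negative pool, Acadm, Hadha, Hadhb and Etfdh lower and Ppargc1b and Prkab1 higher, where 26.5% of all genes were called, 13.9% lower and 12.5% higher. The replicates did not overlap for 8 members, against 44.2% of all genes. The member median was -0.19 beside 0.01 for all genes, and the median size of the log2 difference without its sign was 0.23 beside 0.22.

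The trifunctional protein subunits fell most. Hadha stood at 134, 133 and 131 CPM with the combined pool and at 207, 223 and 223 CPM with the negative pool, 1.64-fold lower and with closely placed replicates (log2 fold change -0.71 ± 0.05 SE, edgeR adjusted p = 3.67e-11). Hadhb stood at 4.32, 5.71 and 5.11 CPM and at 7.94, 9.34 and 10.8 CPM, 1.85-fold lower (-0.89 ± 0.17 SE, edgeR adjusted p = 1.98e-04). Both calls held in each fit that left out a sample.

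The coactivator moved the other way. Ppargc1b stood at 14.1, 12.4 and 8.15 CPM with the combined pool and at 5.78, 6.60 and 7.32 CPM with the negative pool, with no overlap but a wide spread among the pool samples (log2 fold change 0.81 ± 0.19 SE, edgeR adjusted p = 0.00132). Prkab1 stood at 43.6, 40.5 and 41.4 CPM against 35.02, 34.2 and 37.8 CPM (0.23 ± 0.08 SE, edgeR adjusted p = 0.0250). The Prkab1 call was lost without combined pool replicate 1 (edgeR adjusted p = 0.102) or without negative pool replicate 1 or 2 (0.0786 and 0.0976).

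Smaller differences were seen in the dehydrogenases and in Etfdh. Acadm stood at 58.2, 55.9 and 60.9 CPM against 67.5, 64.0 and 68.9 CPM (log2 fold change -0.20 ± 0.06 SE, edgeR adjusted p = 0.0169), a call lost without combined pool replicate 2 (0.0874) or negative pool replicate 1 or 3 (0.0530 and 0.0780). Etfdh stood at 36.7, 36.7 and 39.8 CPM against 40.8, 42.0 and 46.4 CPM (-0.19 ± 0.07 SE, edgeR adjusted p = 0.0439), a call lost without combined pool replicate 1 or 2 (0.136 and 0.132) or negative pool replicate 2 or 3 (0.0610 and 0.241). For these genes the separation of the groups was complete but narrow. Acadl (-0.18 ± 0.07 SE, edgeR adjusted p = 0.0703), Cpt2 (-0.26 ± 0.11 SE, 0.0956) and Acadvl (-0.11 ± 0.08 SE, 0.310) were not called. Scaling by library totals alone moved the median of all genes from 0.01 to 0.14, lost the calls of Acadm and Etfdh and left 2 members higher and 2 lower, with all genes split into 3562 higher and 1142 lower in place of 1778 and 1972.

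The summed macrophage markers stood at 11670 to 12620 CPM with the combined and 12200 to 13190 CPM with the negative pool, and the mesothelial markers at 11.3 to 19.2 and 19.3 to 29.9 CPM. With the Myc pool they stood at 11460 to 11680 and 11 to 15.2 CPM, and with the Pparg pool at 12130 to 13530 and 14.96 to 31.6 CPM. Their part in the pool differences was not tested.

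Among the single pools, members were called with Myc and Pparg and none with E2f1 or Stat6. These comparisons share the negative pool samples with that of the combined pool, so the values are set side by side only. The Myc pool gave 6 calls (29.6% of all genes, 15.6% lower and 13.9% higher), with Acadm, Hadha, Hadhb and Etfdh lower and Ppargc1b and Prkab1 higher. The Pparg pool gave 5 (5.74% of all genes, 3.03% lower and 2.71% higher), with Acadl, Acadm, Hadha and Hadhb lower and Ppargc1b higher. Under library totals alone the Myc split was 3 higher and 2 lower in place of 2 and 4. The median of all genes was then 0.13 in place of 0.00. All genes split into 3779 higher and 1309 lower in place of 1975 and 2213.

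Hadha stood at 135, 138 and 138 CPM with the Myc pool (log2 fold change -0.67 ± 0.05 SE, edgeR adjusted p = 9.60e-11). With the Pparg pool it stood at 153, 151 and 154 CPM (-0.51 ± 0.05 SE, edgeR adjusted p = 1.87e-07). With the E2f1 pool it stood at 215, 202 and 221 CPM (-0.03 ± 0.05 SE, 0.903) and with the Stat6 pool at 213, 197 and 200.1 CPM (-0.10 ± 0.05 SE, 0.484). The first 2 pools lay below every negative pool sample, and the other 2 overlapped with them.

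Hadhb stood at 6.27, 5.14 and 5.65 CPM with the Myc pool (log2 fold change -0.72 ± 0.17 SE, edgeR adjusted p = 0.00137) and at 6.32, 5.26 and 3.87 CPM with the Pparg pool (-0.86 ± 0.17 SE, 0.00160). Ppargc1b stood at 9.97, 14.0 and 9.99 CPM with the Myc pool (0.79 ± 0.18 SE, edgeR adjusted p = 0.00147) and at 9.69, 11.1 and 12.4 CPM with the Pparg pool (0.75 ± 0.19 SE, 0.0125). All these samples lay outside the range of the negative pool. The Ppargc1b call with the Pparg pool was lost without Pparg pool replicate 3 (edgeR adjusted p = 0.0923) or negative pool replicate 1 (0.0819).

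Acadl was lower with the Pparg pool, at 106.5, 106 and 104 CPM against 129, 122 and 132 CPM with the negative pool (log2 fold change -0.27 ± 0.07 SE, edgeR adjusted p = 0.0206), and was not called with the Myc pool, at 137, 133 and 127 CPM (0.05 ± 0.07 SE, 0.623). Acadm was lower with the Myc pool by 0.18 and with the Pparg pool by 0.22 on the log2 scale (edgeR adjusted p = 0.0230 and 0.0324). The Pparg pool calls of Acadl and Acadm were both lost without Pparg pool replicate 2 or 3 or negative pool replicate 1 or 3 (edgeR adjusted p = 0.0571 to 0.148), which took the count to 2 without Pparg pool replicate 3 or negative pool replicate 1. The Myc pool call of Acadm was lost without Myc pool replicate 1 or 3 or negative pool replicate 1 or 3 (0.0501 to 0.0987). That of Etfdh (-0.19 ± 0.07 SE, edgeR adjusted p = 0.0428) was lost without Myc pool replicate 1 or 2 or negative pool replicate 2 or 3 (0.0506 to 0.240). Prkab1, at 43.7, 45.4 and 42.4 CPM with the Myc pool, was higher by 0.30 ± 0.08 SE (edgeR adjusted p = 0.00331).

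With the E2f1 pool edgeR called 0 of 9 members (0.91% of all genes), DESeq2 called 0 and 1 had an unadjusted p under 0.05, Hadhb (log2 difference -0.36). With the Stat6 pool edgeR and DESeq2 called 0 (1.51% of all genes) and 0 had an unadjusted p under 0.05. The largest log2 difference with the Stat6 pool was again that of Hadhb, at -0.31 ± 0.17 SE.

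The combined pool was also set against the Myc and Pparg pools, and not against the E2f1 and Stat6 pools. Against the Myc pool, edgeR and DESeq2 called 0 members (0.0494% of all genes) and 1 had an unadjusted p under 0.05, Acadl, which stood at 113 ± 1.35 CPM with the combined and 132.5 ± 4.86 CPM with the Myc pool (log2 difference -0.23 ± 0.07 SE). Against the Pparg pool Hadha was lower by 0.20 ± 0.05 SE (edgeR adjusted p = 0.00923), the single call where 18.0% of all genes were called, 10.3% lower. With library totals alone, which moved the median of all genes from -0.01 to 0.12, 2 members were called, both higher. All genes then split into 2813 higher and 794 lower in place of 1088 and 1456.

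Against M2-like mock cells, all 9 members were called with the combined pool (37.1% of all genes, 18.1% lower and 19.0% higher), 7 lower and Ppargc1b and Prkab1 higher. Hadha stood 1.92-fold lower (log2 fold change -0.94 ± 0.05 SE, edgeR adjusted p = 1.60e-14) and Hadhb 2.07-fold lower (-1.05 ± 0.17 SE, edgeR adjusted p = 9.87e-06). Prkab1 was higher by 0.31 ± 0.08 SE (edgeR adjusted p = 0.00160). The calls of Hadha, Hadhb, Acadm and Prkab1 held in each fit that left out a sample. Those of Etfdh, Cpt2 and Ppargc1b were lost in 5, 4 and 4 of the 6 such fits, that of Acadvl without M2-like mock replicate 3 (edgeR adjusted p = 0.0539) and that of Acadl without M2-like mock replicate 1 (0.0588). The macrophage markers summed to 11670 to 12620 CPM with the combined pool against 14550 to 15900 CPM in mock cells. The eosinophil markers summed to 22.98 to 35.2 against 18.8 to 20.1 CPM and the T cell markers to 2.72 to 2.92 against 0.768 to 1.11 CPM. The B cell markers summed to 13.7 to 25.7 against 6.90 to 12.5 CPM and the mast cell markers to 1.65 to 2.23 against 1.19 to 1.60 CPM. Their part was not tested. With library totals alone, which moved the median of all genes from 0.02 to 0.18, 4 members were called, 2 higher and 2 lower. All genes then split into 4714 higher and 1463 lower in place of 2687 and 2567.

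Against M1-like mock cells 4 members were called (52.9% of all genes, 27.2% higher and 25.6% lower). Hadha stood above the M1-like level, at 131 to 134 CPM with the combined pool against 100.2 to 104 CPM, a log2 fold change of 0.38 ± 0.05 SE (edgeR adjusted p = 6.27e-07). Acadvl (-0.26 ± 0.08 SE, edgeR adjusted p = 0.00541), Hadhb (-0.65 ± 0.17 SE, 0.00202) and Etfdh (-0.30 ± 0.07 SE, 5.88e-04) stood below it. Hadha with the combined pool thus lay between the M2-like and M1-like mock levels, and Hadhb lay below both. Acadm, at 58.3 ± 2.55 CPM with the combined pool and 53.8 ± 3.05 CPM in M1-like mock cells, was not called (0.12 ± 0.06 SE, edgeR adjusted p = 0.110), nor was Prkab1 at 41.8 ± 1.59 and 47.1 ± 4.81 CPM (-0.17 ± 0.08 SE, 0.0528). The macrophage markers summed to 11670 to 12620 CPM with the combined pool against 6162 to 7160 CPM in M1-like mock cells. The mesothelial markers stood at 11.3 to 19.2 against 0.344 to 1.05 CPM, and the eosinophil markers at 22.98 to 35.2 against 0.737 to 1.28 CPM. The neutrophil markers went the other way, at 4.32 to 7.34 against 7.67 to 11.9 CPM. Their part was not tested.

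**Figure D4:**
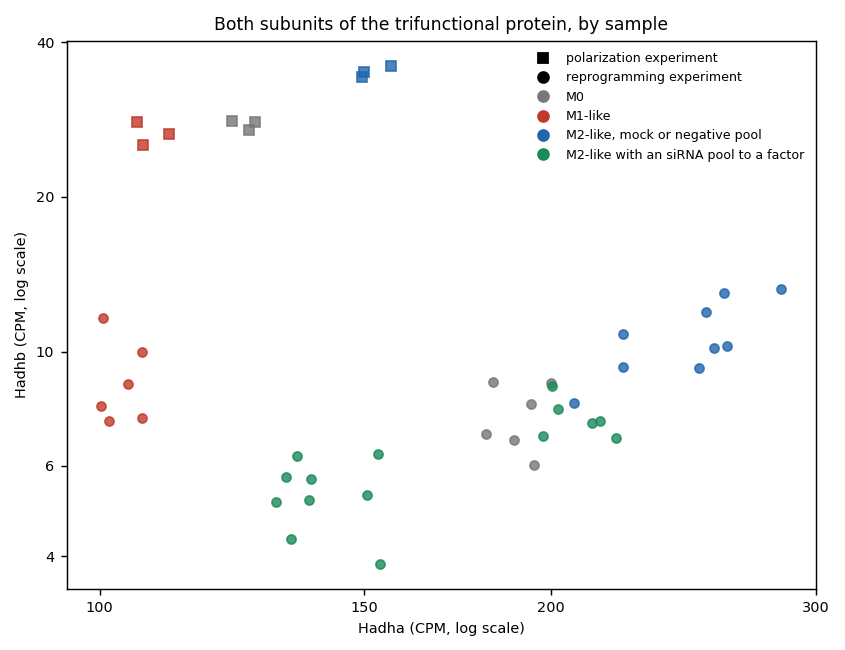
Normalised counts of Hadha (horizontal, CPM, log scale) and Hadhb (vertical, CPM, log scale) in each sample, squares for the polarization and circles for the reprogramming experiment, coloured by state. The polarization samples lie apart at 25.2 to 36 CPM of Hadhb; within the reprogramming experiment M1-like samples combine the lowest Hadha (100.2 to 107 CPM) with Hadhb between 7.32 and 11.6 CPM, and M2-like samples with a pool to a factor reach the lowest Hadhb.

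The reads of the subunits, with 85 bases between their GENCODE starts, did not keep a single ratio. In the reprogramming experiment Hadha counts per Hadhb count were 12.1 to 13.9 in M1-like mock, 21.3 to 27.0 in M2-like mock, 20.7 to 26.1 with the negative pool and 23.3 to 31.1 with the combined pool, after 3.78 to 4.65 in the polarization experiment. M1-like mock samples thus lay below all others of those 4 groups, and the pool samples overlapped with their controls. The M1-like samples of the polarization experiment also lay below its M0 and M2-like samples. Across the 12 condition means of the reprogramming experiment the log2 levels of Hadha and Hadhb had a Pearson r of 0.457, given as a description, since the conditions share controls and libraries.

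Motifs were searched on both strands in the RefSeq windows of the 8 members listed there. The E-box CACGTG bound by Myc, the PPAR element (AGGTCA repeated directly after 1 free base), the ERR element TCAAGGTCA, the E2F sites TTTCCCGC and TTTGGCGC and the STAT6 site (TTC, 4 free bases, GAA) were found in 0 of 8 windows each. Of all 32817 windows, 7.15%, 0.04%, 0.42%, 1.07%, 0.51% and 6.94% held them. These letters are not in these 300-base windows, which says nothing of binding elsewhere.

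The genes whose pattern over the 12 condition means of the reprogramming experiment was most like that of each member were taken from 10130 expressed genes by Pearson r of log2 CPM. For Hadha they were Arhgap39 (r = 0.992) and Arhgap18 (0.984), for Hadhb Ube2h (0.968) and Rb1 (0.928), for Acadm Glod4 (0.958) and Vdac1 (0.957), for Acadl Plin2 (0.944) and Map3k8 (0.891), and for Acadvl Prpf8 (0.913) and Golgb1 (0.884). For Cpt2 they were Vdac1 (0.845) and Smc3 (0.822), for Etfdh Txlng (0.947) and Ptdss2 (0.943), for Ppargc1b Usp16 and Manbal (0.919 each), and for Prkab1 Gtf2ird1 (0.981) and Tmub1 (0.973). No member was among the 2 nearest genes of another. Between members r ran from -0.953 (Hadha and Prkab1) to 0.950 (Hadha and Acadm). The conditions share libraries and controls, so these values are descriptions.

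The rest of the pathway gives the setting. At 24 h, 13 of 15 other mitochondrial beta-oxidation enzymes were lower and none higher in M1-like against M2-like cells, with a median log2 fold change of -0.97, where 38.1% of all genes were lower. The median over all genes was -0.06. Acaa2, the thiolase of the last step, stood at 9.46 ± 1.30 CPM in M1-like against 47.0 ± 3.35 CPM in M2-like cells (log2 fold change -2.31 ± 0.10 SE), and Hadh, the short chain hydroxyacyl-CoA dehydrogenase, at 12.5 ± 0.476 and 48.3 ± 2.42 CPM (-1.95 ± 0.07 SE). In size both exceeded the differences of the 9 members, of which Prkab1 (0.77) had the largest. In mock transfected cells 2 of the 15 were higher and 5 lower (median -0.06), among them Etfb, a subunit of the flavoprotein that feeds Etfdh, at 32.1 ± 3.73 and 63.1 ± 3.17 CPM (-0.97 ± 0.10 SE). With the combined pool, 2 of 15 were lower against the negative pool, Acaa2 (-0.35 ± 0.09 SE) and Acads, the short chain dehydrogenase (-0.29 ± 0.10 SE), and none was higher.

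In the carnitine shuttle, 1 of 4 tested genes was higher and 2 lower in M1-like cells at 24 h, Crat, the carnitine acetyltransferase, by -0.99 ± 0.06 SE on the log2 scale. Crat was also lower in M1-like mock cells (-1.40 ± 0.09 SE) and with the combined pool (-0.40 ± 0.08 SE), each time among 5 tested genes with 1 lower, and 1 was higher in M1-like mock cells. Together with the enzymes, 15 of 19 tested genes were lower and 1 higher at 24 h, 6 of 20 lower and 3 higher in M1-like mock cells, and 3 of 20 lower and none higher with the combined pool.

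The steps before and around mitochondrial oxidation were mixed. The list counts in this and the other pathway comparisons stand beside 34.6% of all genes higher and 38.1% lower in M1-like against M2-like cells at 24 h, 30.9% and 29.8% after mock transfection, and 12.5% and 13.9% with the combined against the negative pool. Of 9 acyl-CoA synthetases and thioesterases, 3 were higher and 4 lower at 24 h, and Acsl1, which activates long-chain fatty acids, stood at 1844 ± 290.8 CPM in M1-like against 47.3 ± 3.46 CPM in M2-like cells (log2 fold change 5.29 ± 0.12 SE). The same counts applied in M1-like mock cells, and 3 of 9 were lower with the combined pool, Acsl3 by -1.26 ± 0.16 SE on the log2 scale. Of 14 peroxisomal genes 3 were higher and 10 lower at 24 h, 2 and 7 in M1-like mock cells, and 0 and 6 with the combined pool. Of 12 uptake and lipolysis genes 3 were higher and 7 lower at 24 h, with Cd36, a fatty acid translocase, at 109 ± 9.05 and 5710 ± 1027 CPM. In M1-like mock cells 1 was higher and 8 lower, with Lpl, lipoprotein lipase, at -3.97 ± 0.15 SE on the log2 scale, and 5 were lower and none higher with the combined pool, Lpl by -0.89 ± 0.13 SE.

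Among relatives of the control genes, the 12 tested PGC-1, ERR and PPAR regulators split into 6 higher and 6 lower at 24 h, 6 and 3 in M1-like mock cells and 2 and 2 with the combined pool. Pprc1, a relative of Ppargc1b, was higher with the combined pool (log2 fold change 0.35 ± 0.09 SE). Of 12 tested AMPK subunits, upstream kinases and malonyl-CoA enzymes, 3 were higher and 6 lower at 24 h. Prkag1, a gamma subunit of AMPK, was higher (0.71 ± 0.10 SE) and Prkag2 lower (-1.62 ± 0.07 SE). In M1-like mock cells 2 were higher and 4 lower, and with the combined pool 2 were lower and none higher, among them Acaca, the acetyl-CoA carboxylase that makes malonyl-CoA (-0.55 ± 0.09 SE). Of 6 tested PPAR-responsive genes 1 was higher and 5 lower at 24 h, none and 4 in M1-like mock cells and none and 2 with the combined pool, Ucp2, a mitochondrial carrier, being lower in all 3 (-2.03, -2.06 and -0.70).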

How the data were processed

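The study compared 54 mouse RNA-seq libraries in 15 conditions. The authors trimmed reads with Trimmomatic, aligned them with TopHat2 to mm10 (GRCm38) and counted them per gene with featureCounts, and deposited raw counts per gene, not normalized. Tool versions, annotation release and strand setting are not given in the sources used here. Technical replicates of a mouse (chi-square per gene 1.07 to 1.10, against 3.63 to 52.4 between mice) were summed. Counts were tested per experiment with edgeR 4.0.16 (R 4.3.3): filterByExpr with a minimum count of 10, TMM factors, glmQLFit and glmQLFTest over all samples of the experiment without a block, Benjamini-Hochberg adjustment over all genes (16110 and 14172 tested), adjusted p under 0.05. CPM use TMM library sizes, and RPKM the longest protein-coding transcript of GENCODE M21. Summaries used Python 3.11.15 with pandas 2.3.3 and NumPy 2.4.6, figures matplotlib 3.10.9. The edgeR and DESeq2 fits were tested on simulated counts for M1-like against M2-like at 24 h and the combined against the negative pool.

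The 9 members and the gene lists were chosen with earlier results of these data known. Named besides the members were the siRNA targets and label checks, the 2 nearest genes of each member, and from each list up to 2 genes with the largest called change per direction, without overlap and at a mean log2 CPM of at least 2. Alternatives were DESeq2 1.42.0, RLE factors, library totals alone, an unfiltered table, a stricter filter (each sample with 10 counts or more), only the compared groups, a replicate block and each sample left out. In the polarization experiment same-numbered samples come from the same mouse by the labels, and their deviations correlated with a median r of 0.346 (above 0.1 in 7 of 9 pairs). The depth in counted reads limits low genes most, Hadhb (at the fewest 55 counts per sample) and Ppargc1b (82) among the members.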

Additional observations from a re-analysis of the deposited data

How the results depend on the processing

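Numbers of members called stayed within 1.5 times under DESeq2, RLE factors, the filter of 10 counts in every sample and the replicate block in all 23 comparisons. With library totals alone the number was 8 in M1-like against M0 at 24 h and 4 in the combined pool against M2-like mock. It was 2 in the combined against the Pparg pool. It was also 2 in untransfected M2-like against M0 (all genes 960 higher and 2505 lower). For mock in M0 it was 1 (all genes 1181 higher and 2395 lower). With no filter it was 2 in untransfected M2-like against M0, 3 in M1-like against M0 mock, 0 in the negative pool against mock, 3 in the combined against the negative pool and 0 in the combined against the Pparg pool. With only the compared groups fitted it was 3 in untransfected M1-like against M2-like, 3 in M1-like against M0 mock, 1 in M2-like against M0 mock and 0 in the combined against the Pparg pool. Of the other mitochondrial and carnitine genes, 5 were called with the combined pool with library totals alone and 5 with only the compared groups. The cause was not tested in any of these. The share of all genes called is not given here for no filter, only the compared groups, the replicate block or samples left out. Counts under those settings are therefore not read as particular to the members.

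Signs reversed with library totals alone for Acadvl in M1-like against M2-like mock (0.18), Acadl (0.028) and Acadm (0.0695) in M1-like against M0 mock and Acadvl with the combined against the negative pool (0.018), and for Acadvl in M1-like against M2-like mock without M2-like mock replicate 3 (0.062, the range over samples left out being -0.12 to 0.062). Leaving out each sample gave 2 to 4 calls in untransfected M2-like against M0, 3 to 5 in M1-like against M0 mock, 1 to 3 in M2-like against M0 mock, 1 to 2 in the negative pool against mock and 2 to 5 with the Pparg pool.

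In the reprogramming experiment replicates share only a number: 135 of 198 same-numbered pairs had correlated deviations above 0.1 (median 0.202), and 33 of 36 samples correlated best with their own number. With the replicate block 7 members were called in M1-like against M2-like mock, with Ppargc1b gained (0.39, edgeR adjusted p = 0.0469), 7 with the combined against the negative pool, with Acadl gained (-0.18, 0.0328), and 6 in M1-like against M2-like at 24 h.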
